A study of Mus musculus with 12 samples.

Results

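The peroxisome biogenesis and peroxisomal lipid metabolism genes described here are 30 genes picked by symbol from the 24344 rows of the deposited gene table, and all 30 were found. The 30 genes were chosen with earlier results of these data known. Their counts beside the shares of all genes are thus descriptions and do not test an excess. They comprise 12 peroxins, the PEX proteins that build the organelle and import its enzymes, and 18 genes of fatty acyl transport and oxidation, ether lipid synthesis and peroxide breakdown. RNA of inguinal white fat, a subcutaneous depot of the mouse, was sequenced in 12 libraries from C57BL/6J mice labelled as aged 10 weeks, 3 libraries in each of 4 groups. The groups were AKO at 8 °C, WT at 8 °C, AKO at 30 °C and WT at 30 °C. Housing at room temperature for 4 weeks came first, then 6 weeks of 30 °C, and then 3 days at either 8 °C or 30 °C. The title of the series names the genotypes Ern1 f/f AKO and Ern1 f/f, and the labels give them as IRE1(alpha)-/- and WT. By the title both therefore carry the f/f alleles of Ern1, which encodes IRE1 alpha, a sensor of unfolded proteins in the endoplasmic reticulum. The promoter that drives the deletion and the sex of the mice are not given in the sources used here. Below, fat at 8 °C is called cold and fat at 30 °C warm. Levels are FPKM, fragments scaled to transcript length and to library size, so that genes can be compared with each other. The depth behind them is unknown.

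Peroxisomes are single-membrane organelles that shorten very long-chain, branched-chain and dicarboxylic fatty acids by beta-oxidation, make branched phytanic acid accessible to that pathway by alpha-oxidation, and begin the synthesis of ether lipids such as plasmalogens. Their oxidases produce hydrogen peroxide, which catalase breaks down. They make none of their own proteins: cargo carrying a targeting signal is recognised in the cytosol by the receptors PEX5 or PEX7, docks at the membrane and is released inside. In rodents many of the beta-oxidation genes are classical targets of PPAR alpha, and fat that turns thermogenic in the cold is known to gain peroxisomes beside its mitochondria.

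Ern1, the gene named as deleted, was not lower in AKO-labelled fat, so the genotype is written as labelled throughout. It stood at 6.83, 6.92 and 7.37 FPKM in cold AKO-labelled fat, 4.53, 5.16 and 5.20 FPKM in cold WT-labelled fat, 4.50, 4.24 and 3.45 FPKM in warm AKO-labelled fat and 2.53, 3.32 and 2.97 FPKM in warm WT-labelled fat, so that the AKO-labelled values lay above the WT-labelled ones at both temperatures. The difference was called at neither temperature (adjusted p = 0.0756 in cold and 0.193 in warm fat). A gene-level FPKM sums all exons and cannot show whether some were deleted. The 10 adipocyte markers summed to 54604 to 58719.6 FPKM in cold AKO-labelled fat, 51411 to 75457 in cold WT-labelled fat, 33321 to 40468 in warm AKO-labelled fat and 31431 to 35307 in warm WT-labelled fat. In the cold 4 of them rose and 1 fell in AKO-labelled fat, and 8 rose in WT-labelled fat, with a median log2 fold change of 0.43 in AKO-labelled and 0.88 in WT-labelled fat. Of 9 endothelial markers 5 rose in AKO-labelled and 7 in WT-labelled fat. Macrophage and fibroblast markers moved in opposite directions in the genotypes. Among 10 macrophage markers 2 fell in AKO-labelled fat (median -0.55) and 4 rose in WT-labelled fat (median 0.65). Among 10 fibroblast markers 3 fell in AKO-labelled fat (median -0.45) and 4 rose in WT-labelled fat (median 0.58). Markers of brown and beige fat summed to 10475 to 12823 FPKM in cold AKO-labelled fat, 7476 to 9134 in cold WT-labelled fat, 703 to 1568 in warm AKO-labelled fat and 722 to 1011 in warm WT-labelled fat. Lymphocyte markers summed to 310 to 604 FPKM in cold AKO-labelled fat, 498 to 698 in cold WT-labelled fat, 896 to 1121 in warm AKO-labelled fat and 1052 to 1459 in warm WT-labelled fat. Of the 10 lymphocyte markers 10 fell in the cold in AKO-labelled and 9 in WT-labelled fat. Skeletal muscle markers summed to 350.3 to 926 FPKM in cold AKO-labelled fat, 695 to 1512 in cold WT-labelled fat, 2955 to 5838 in warm AKO-labelled fat and 2806 to 7241 in warm WT-labelled fat. The part of these cell types in the results below was not tested, and in bulk tissue fewer cells of a type cannot be told apart from less RNA per cell. Of the 6 hepatocyte markers, Ttr and Fgb were at 0 in every library, and Apoa1, Apoa2 and Serpina1a reached at most 3.58 FPKM. Alb averaged 19.9 FPKM in cold AKO-labelled, 26.2 in cold WT-labelled, 6.1 in warm AKO-labelled and 7.4 in warm WT-labelled fat. Alb was called higher in the cold, at 1.61 (adjusted p = 0.0117) in AKO-labelled and 1.82 (adjusted p = 0.00635) in WT-labelled fat. The source of the Alb signal was not tested. Cold WT-labelled replicate 1 stood apart, with 103.7 FPKM of summed mammary epithelium markers against 3.28 to 8.01 in the other 11 libraries, and with the highest adipocyte sum.

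The 30 genes together summed to 3169 to 3792 FPKM in cold AKO-labelled fat, 2575 to 3410 in cold WT-labelled fat, 1280.2 to 1513 in warm AKO-labelled fat and 1098 to 1345 in warm WT-labelled fat. As a share of all FPKM that was 0.435% to 0.510%, 0.381% to 0.475%, 0.211% to 0.255% and 0.173% to 0.223% in the same groups. The cold and warm groups did not overlap in either genotype. Catalase had the highest mean of the 30 genes in each group and Scp2 the second highest. Agps, Pex26, Pex10 and Amacr had the lowest means in each group, at 4.64 to 18.7 FPKM in cold AKO-labelled fat, 5.72 to 12.5 in cold WT-labelled fat, 5.55 to 8.00 in warm AKO-labelled fat and 5.52 to 8.23 in warm WT-labelled fat.

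**Figure D1:**
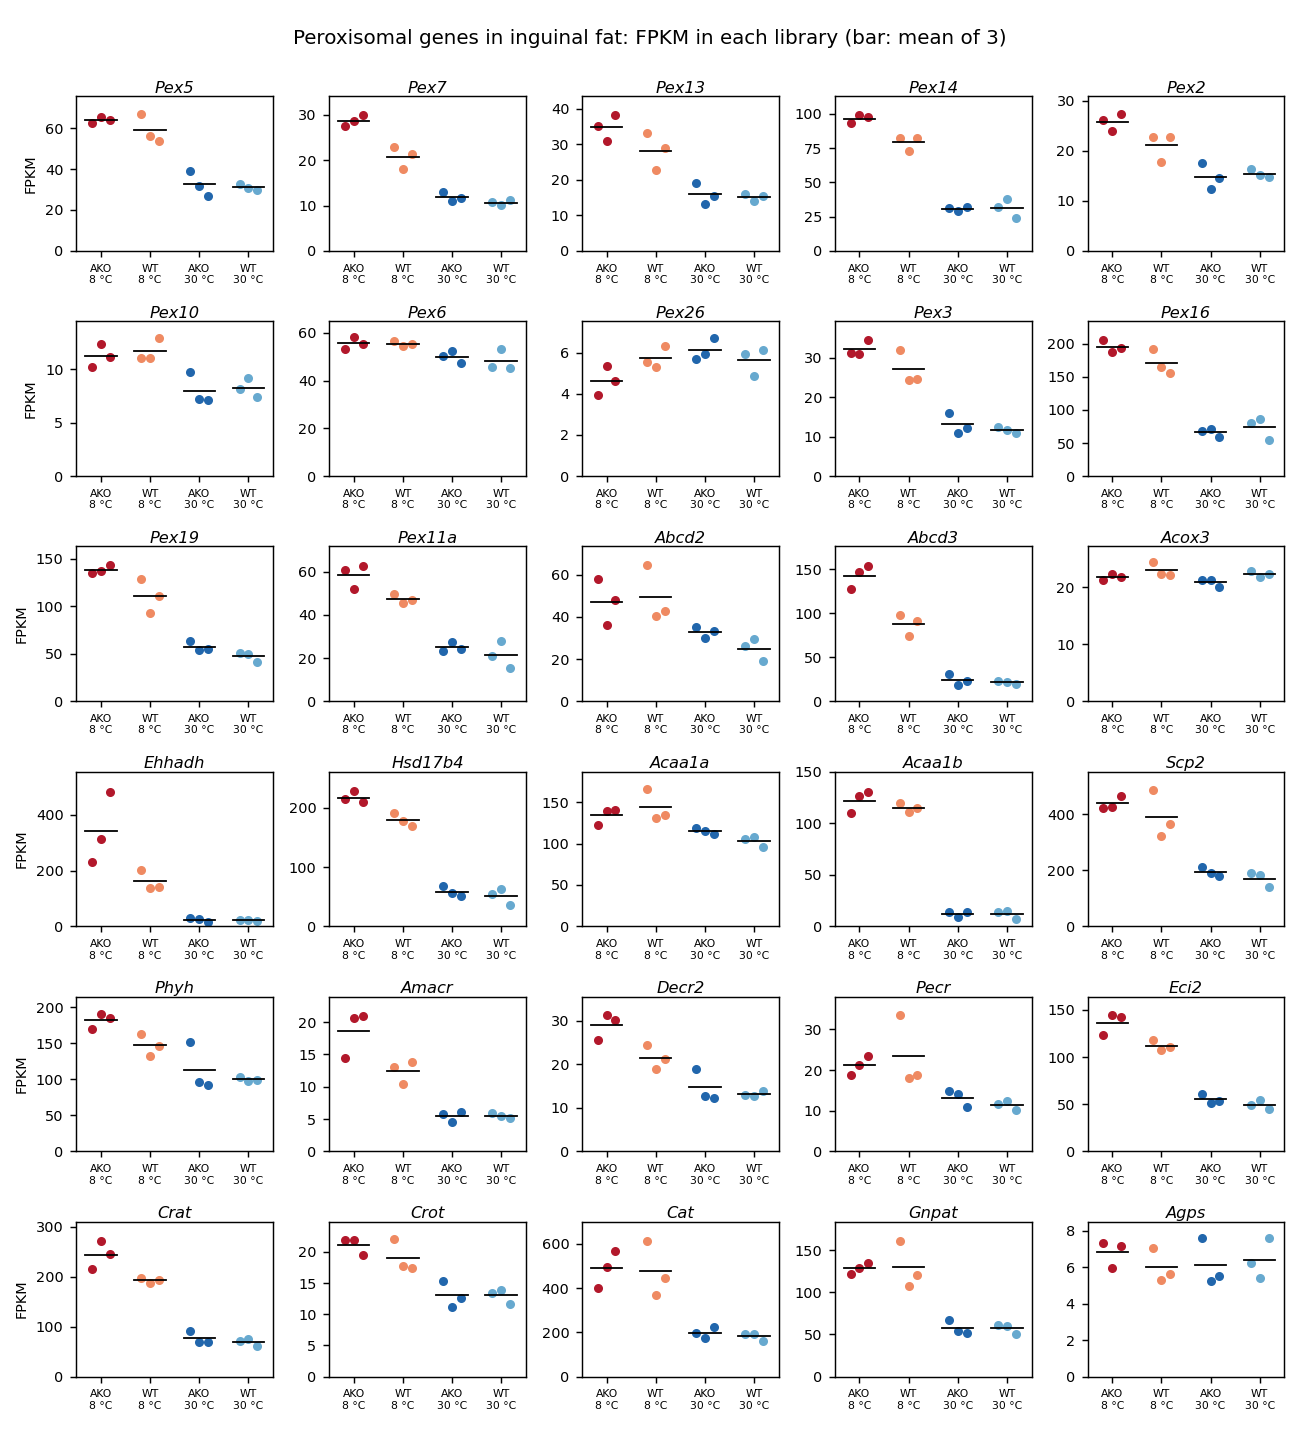
Level of each of the 30 genes in FPKM on the vertical axis, which starts at 0 in each panel, for 3 libraries in each of 4 groups on the horizontal axis. Points are libraries and bars are group means; for most genes both cold groups lie above both warm groups, while Pex6, Pex26, Acox3, Acaa1a and Agps differ less between cold and warm groups.

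Cold against warm fat addresses how the tissue responded to 3 days of cold in each genotype. In AKO-labelled fat 24 of the 30 genes rose in the cold and 1, Pex26, fell, where 26.5% of the 13215 genes tested were called higher and 23.1% lower. In WT-labelled fat 26 rose and none fell, where 24.3% of all genes were called higher and 24.7% lower. The median log2 fold change of the 30 genes, taken on FPKM plus 1, was 1.17 in AKO-labelled and 0.99 in WT-labelled fat, and that of all genes tested was 0.00 and -0.01. The 24 genes called higher in AKO-labelled fat were all among the 26 in WT-labelled fat. Calls rest on limma's test with p-values adjusted by the Benjamini-Hochberg method over every tested gene, at a threshold of 0.05, and measure the spread between these libraries. Without warm AKO-labelled replicate 1, whose brown and beige marker sum was the highest of its group, 25 genes were called in AKO-labelled fat in either direction, as with it. Without cold WT-labelled replicate 1, 24 were called in WT-labelled fat. Scaling each library to the same sum of FPKM put the median of all genes at -0.22 in AKO-labelled and -0.14 in WT-labelled fat and that of the 30 genes at 0.90 and 0.86. It left 22 genes higher and 2, Acox3 and Pex26, lower in AKO-labelled fat and 23 higher in WT-labelled fat. Over all genes it called 2273 higher and 5275 lower in AKO-labelled and 2454 higher and 4488 lower in WT-labelled fat, against 3498 and 3050 in AKO-labelled and 3211 and 3268 in WT-labelled fat as deposited. With upper-quartile scaling the split in AKO-labelled fat was 2990.0 higher and 4067 lower.

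Among the import receptors and docking proteins, all 4 rose in both genotypes. Pex14, the docking protein that receives loaded receptors at the membrane, had 93.3, 99 and 97.6 FPKM in cold AKO-labelled fat, 82.8, 72.9 and 82.2 FPKM in cold WT-labelled fat, 31.5, 29.4 and 32.1 FPKM in warm AKO-labelled fat and 32.3, 37.9 and 24.2 FPKM in warm WT-labelled fat. Each cold library lay above each warm one, with a log2 fold change of 1.61 (adjusted p = 1.82e-06, SE 0.13) in AKO-labelled and 1.33 (adjusted p = 1.56e-05, SE 0.13) in WT-labelled fat. Its partner Pex13 rose by 1.09 in AKO-labelled and 0.84 in WT-labelled fat. Pex5, the receptor for most matrix enzymes, rose by 0.97 in AKO-labelled and 0.89 in WT-labelled fat, its means being 64 ± 1.41 FPKM, 58.9 ± 6.83 FPKM, 32.5 ± 6.19 FPKM and 31.2 ± 1.39 FPKM in cold AKO-labelled, cold WT-labelled, warm AKO-labelled and warm WT-labelled fat (SD, n = 3). Pex7, the receptor for a second targeting signal, rose by 1.21 in AKO-labelled and 0.90 in WT-labelled fat. Reads over Pex14 may in part come from Gm17029, an antisense gene that covers 28.3% of its exonic bases, since the strand setting is not stated in the sources used here.

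The machinery that pulls used receptors back out of the membrane had the smallest estimates among the peroxins. Pex2 and Pex10, RING-finger ubiquitin ligases that mark the receptor for recycling, rose in both genotypes. Pex2 rose by 0.78 (adjusted p = 0.000449, SE 0.13) in AKO-labelled and by 0.42 (adjusted p = 0.0183, SE 0.13) in WT-labelled fat, and Pex10 by 0.45 (adjusted p = 0.013, SE 0.13) in AKO-labelled and 0.46 (adjusted p = 0.0126, SE 0.13) in WT-labelled fat. The call of Pex10 in AKO-labelled fat was lost without cold AKO-labelled replicate 2 (adjusted p = 0.0517) and without warm AKO-labelled replicate 2 (0.0529) or 3 (0.0541). In WT-labelled fat that of Pex2 was lost without cold WT-labelled replicate 1 (adjusted p = 0.0667) or 3 (0.0670) or warm WT-labelled replicate 3 (0.0576), and that of Pex10 without cold WT-labelled replicate 3 (0.0530) or warm WT-labelled replicate 3 (0.0524). Equal-sum scaling ended all 3 of these calls. Pex6, the AAA ATPase that extracts the receptor, had 53.3, 58.3 and 55.2 FPKM in cold AKO-labelled fat, 56.7, 54.6 and 55.2 FPKM in cold WT-labelled fat, 50.4, 52.4 and 47.4 FPKM in warm AKO-labelled fat and 45.8, 53.1 and 45.3 FPKM in warm WT-labelled fat and was not called in either genotype, although the cold libraries lay above the warm ones in both. Without warm WT-labelled replicate 2 it passed in WT-labelled fat (0.28, adjusted p = 0.0181), as it did with no filter on low values (0.0471).

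Pex26, the tail-anchored protein that anchors the PEX6 ATPase at the peroxisome, was the one gene that fell. It lies on chromosome 6, 121183667 to 121198837 (GRCm38) and had 3.96, 5.35 and 4.61 FPKM in cold AKO-labelled fat, 5.56, 5.30 and 6.30 FPKM in cold WT-labelled fat, 5.69, 5.94 and 6.70 FPKM in warm AKO-labelled fat and 5.95, 4.85 and 6.12 FPKM in warm WT-labelled fat. All 3 cold values lay below all 3 warm values in AKO-labelled fat, while in WT-labelled fat the groups overlapped. The log2 fold change was -0.34 (adjusted p = 0.0391, SE 0.12) in AKO-labelled fat, a call that was lost without cold AKO-labelled replicate 1 (adjusted p = 0.145) or 3 (0.0823), without warm AKO-labelled replicate 2 (0.0699) or 3 (0.129), with no filter on low values (0.0615) and in a fit of those 6 libraries alone (0.0655). The interaction, which is the AKO-labelled cold change minus the WT-labelled one, did not pass for Pex26 (adjusted p = 0.367).

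Pex3, Pex16 and Pex19, which insert proteins into the peroxisomal membrane, all rose in both genotypes. Pex16 was the most abundant peroxin in cold fat and Pex19 the next. Pex16 had 205, 188 and 194 FPKM in cold AKO-labelled fat, 192, 164 and 156 FPKM in cold WT-labelled fat, 68, 71.7 and 58.8 FPKM in warm AKO-labelled fat and 81, 86.2 and 55.2 FPKM in warm WT-labelled fat, and Pex19, the cytosolic chaperone of membrane proteins, had 135, 137 and 143 FPKM in cold AKO-labelled fat, 129, 93 and 111 FPKM in cold WT-labelled fat, 63.3, 53.9 and 54.5 FPKM in warm AKO-labelled fat and 50.5, 50.1 and 41.2 FPKM in warm WT-labelled fat. Cold and warm libraries did not overlap for either gene. Log2 fold changes of the 3 genes ran between 1.25 and 1.55 in AKO-labelled and between 1.13 and 1.21 in WT-labelled fat. Pex11a, which elongates peroxisomes before they divide, rose by 1.20 (adjusted p = 8.94e-05, SE 0.16) in AKO-labelled and 1.15 (adjusted p = 0.000166, SE 0.16) in WT-labelled fat.

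Fatty acyl-CoA enters the peroxisome through ABC half-transporters, and of the pair in this set Abcd3 rose in both genotypes and Abcd2 in WT-labelled fat. Abcd3 (PMP70), a major membrane protein that carries long branched-chain and dicarboxylic acyl-CoA, lies on chromosome 3, 121758774 to 121815302 (GRCm38) and had 128, 147 and 153 FPKM in cold AKO-labelled fat, 98.3, 74.5 and 91 FPKM in cold WT-labelled fat, 30.5, 18 and 22.6 FPKM in warm AKO-labelled fat and 23.3, 21.6 and 19.9 FPKM in warm WT-labelled fat. Its cold values were several times its warm ones in each genotype. The log2 fold change was 2.57 (adjusted p = 3.52e-07, SE 0.17) in AKO-labelled and 1.97 (adjusted p = 5.67e-06, SE 0.17) in WT-labelled fat. Abcd2, which carries very long-chain and polyunsaturated acyl-CoA, had 58.1, 36 and 47.8 FPKM in cold AKO-labelled fat, 64.5, 40.5 and 42.7 FPKM in cold WT-labelled fat, 35, 29.9 and 33.1 FPKM in warm AKO-labelled fat and 26.3, 29.4 and 19 FPKM in warm WT-labelled fat. Its cold values were above the warm ones in both genotypes, with 36 FPKM in the lowest cold and 35 in the highest warm AKO-labelled library. It was called in WT-labelled fat at 0.95 (adjusted p = 0.00301, SE 0.21) and missed the threshold in AKO-labelled fat at 0.50 (adjusted p = 0.0665, SE 0.21). The interaction for Abcd2 was -0.45 (adjusted p = 0.496, SE 0.30), so a difference between the genotypes in its cold response was not shown. Without cold AKO-labelled replicate 2 it passed in AKO-labelled fat (0.68, adjusted p = 0.0233), as it did in a fit of those 6 libraries alone (0.0393).

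The beta-oxidation core held both the largest cold responses of the 30 genes and some of the flattest levels. Ehhadh, the L-bifunctional enzyme that hydrates and oxidises the chain and is needed for dicarboxylic acids, lies on chromosome 16, 21761287 to 21787807 (GRCm38). It had 229, 312 and 481 FPKM in cold AKO-labelled fat, 202, 139 and 142 FPKM in cold WT-labelled fat, 30.2, 25.4 and 15 FPKM in warm AKO-labelled fat and 24.1, 21.5 and 17.7 FPKM in warm WT-labelled fat. The cold groups lay far above the warm ones, and the 3 cold AKO-labelled values were themselves spread more widely than any other group. Its log2 fold change in the cold was 3.79 (adjusted p = 8.42e-07, SE 0.28) in AKO-labelled and 2.86 (adjusted p = 1.42e-05, SE 0.28) in WT-labelled fat. Hsd17b4, the D-bifunctional enzyme that handles very long and branched chains, rose by 1.88 in AKO-labelled and 1.83 in WT-labelled fat. Scp2, which encodes a branched-chain thiolase and a sterol carrier protein, rose by 1.19 and 1.18 in AKO-labelled and WT-labelled fat. Acox3, an oxidase for branched chains, had 21.3, 22.4 and 21.8 FPKM in cold AKO-labelled fat, 24.5, 22.3 and 22.1 FPKM in cold WT-labelled fat, 21.3, 21.3 and 20.1 FPKM in warm AKO-labelled fat and 22.8, 21.8 and 22.3 FPKM in warm WT-labelled fat. It was not called in either genotype, and its cold and warm libraries overlapped in both. With equal-sum scaling it was called lower in the cold in AKO-labelled fat (-0.20, adjusted p = 0.0392).

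The neighbouring thiolase genes Acaa1a and Acaa1b, whose products cleave the last bond of each cycle, had cold changes of very different size. Acaa1b lies on chromosome 9, 119148023 to 119157093, and Acaa1a on chromosome 9, 119339676 to 119350299 (GRCm38). Acaa1b had 109.7, 126 and 131 FPKM in cold AKO-labelled fat, 119.9, 111 and 115 FPKM in cold WT-labelled fat, 13.7, 9.34 and 14.2 FPKM in warm AKO-labelled fat and 13.7, 14.8 and 6.90 FPKM in warm WT-labelled fat. That is a log2 fold change of 3.22 (adjusted p = 5.74e-07, SE 0.23) in AKO-labelled and 3.25 (adjusted p = 1.98e-06, SE 0.23) in WT-labelled fat. Acaa1a had 123, 139 and 140.3 FPKM in cold AKO-labelled fat, 166, 131 and 134 FPKM in cold WT-labelled fat, 119, 115 and 111 FPKM in warm AKO-labelled fat and 106, 108 and 96.4 FPKM in warm WT-labelled fat. It was called in WT-labelled fat at 0.46 (adjusted p = 0.00322, SE 0.10) and not in AKO-labelled fat at 0.22 (adjusted p = 0.0993, SE 0.10), a value that turned to -0.047 with equal-sum scaling, and its interaction was -0.25 (adjusted p = 0.453, SE 0.15). In warm fat Acaa1a was thus the higher of the pair several times over, whereas in cold fat the levels of both genes were of similar size. The longest coding transcripts of the pair were identical at 96% of 1450 aligned bases, with one shared run of 327 bases, so that reads could have been split between them in either direction and both levels are uncertain. Dlec1 on the opposite strand covers 11.4% of the exonic bases of Acaa1b.

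Promoters of the pair and of Ehhadh are shown because the neighbours Acaa1b and Acaa1a lie near opposite ends of the range of cold changes, with Ehhadh beside Acaa1b at its top. Each runs from 250 bases before to 50 after a RefSeq start site (GRCm38.p6), 5′ to 3′ on the gene's strand, with capitals marking CCAAT boxes (CCAAT on either strand, ATTGG where it lies on the other). The windows are chr9:119157044-119157343 on the minus strand for Acaa1b, chr9:119341044-119341343 on the plus strand for Acaa1a and chr16:21787785-21788084 on the minus strand for Ehhadh. Those of Acaa1b and Ehhadh contain the 5′ end of the gene as placed above. That of Acaa1a lies wholly inside the gene, downstream of its 5′ end at 119339676, so it belongs to a different start site.
Acaa1b: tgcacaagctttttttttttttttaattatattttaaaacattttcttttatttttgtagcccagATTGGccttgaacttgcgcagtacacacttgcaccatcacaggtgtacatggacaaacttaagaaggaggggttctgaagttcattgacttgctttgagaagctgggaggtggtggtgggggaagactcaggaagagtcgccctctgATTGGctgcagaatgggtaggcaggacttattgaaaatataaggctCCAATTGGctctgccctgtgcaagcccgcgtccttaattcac
Acaa1a: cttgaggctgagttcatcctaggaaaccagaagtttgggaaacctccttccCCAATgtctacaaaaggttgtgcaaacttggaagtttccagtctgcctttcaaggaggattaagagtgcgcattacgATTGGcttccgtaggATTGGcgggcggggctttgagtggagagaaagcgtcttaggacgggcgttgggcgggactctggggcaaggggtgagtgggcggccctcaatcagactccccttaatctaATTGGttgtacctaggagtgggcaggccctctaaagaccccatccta
Ehhadh: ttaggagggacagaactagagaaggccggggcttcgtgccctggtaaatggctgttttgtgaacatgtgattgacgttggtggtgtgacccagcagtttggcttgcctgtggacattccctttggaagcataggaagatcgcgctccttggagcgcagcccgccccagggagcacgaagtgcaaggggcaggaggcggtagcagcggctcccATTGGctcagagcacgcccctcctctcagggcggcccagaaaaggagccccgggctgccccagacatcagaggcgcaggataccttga
The Acaa1b window held 43.7% G and C with 4 CpG and 4 CCAAT boxes, of which a pair overlap, and that of Acaa1a held 53.3% with 10 CpG and 4 CCAAT boxes. The Ehhadh window held 60.7% with 14 CpG and 1 CCAAT box. RefSeq promoters were matched for 24 of the 30 genes (28 windows), with medians of 60% G and C and 16 CpG, against 52.7% and 7 over all 32851 promoters of the table. CCAAT was found in 12 of 28 windows (42.9%), against 37.4% of all promoters.

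The canonical PPAR response element, a direct repeat spaced by 1 base (AGGTCANAGGTCA, both strands), was in none of the 28 windows and in 0.0396% of all promoters. With up to 2 mismatches allowed it was found in 1 window, that of Cat, and in 3.86% of all promoters. The Cat promoter, chr2:103485104-103485403 on the minus strand, is shown with that match in capitals, at bases -204 to -192 from the start site.
Cat: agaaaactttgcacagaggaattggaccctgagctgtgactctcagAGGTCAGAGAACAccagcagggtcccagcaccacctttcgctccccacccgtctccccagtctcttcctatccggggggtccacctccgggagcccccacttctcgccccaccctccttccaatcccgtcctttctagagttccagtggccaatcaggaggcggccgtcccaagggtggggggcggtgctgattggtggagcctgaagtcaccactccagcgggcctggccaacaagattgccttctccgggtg
Of the other motifs searched on both strands, the ERR element (TCAAGGTCA) was in no window and in 0.423% of all promoters. The NRF1 element (GCGCNNGCGC) was in the windows of Abcd3 and Pex10, 2 of 28 or 7.14% against 6.23%. The cAMP response element (TGACGTCA) was in that of Pex13, 1 of 28 or 3.57% against 1.79%, and the E-box (CACGTG) in that of Gnpat, 1 of 28 or 3.57% against 7.15%. A match is a description of letters and not a site, and a window without one says nothing about sites elsewhere.

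**Figure D2:**
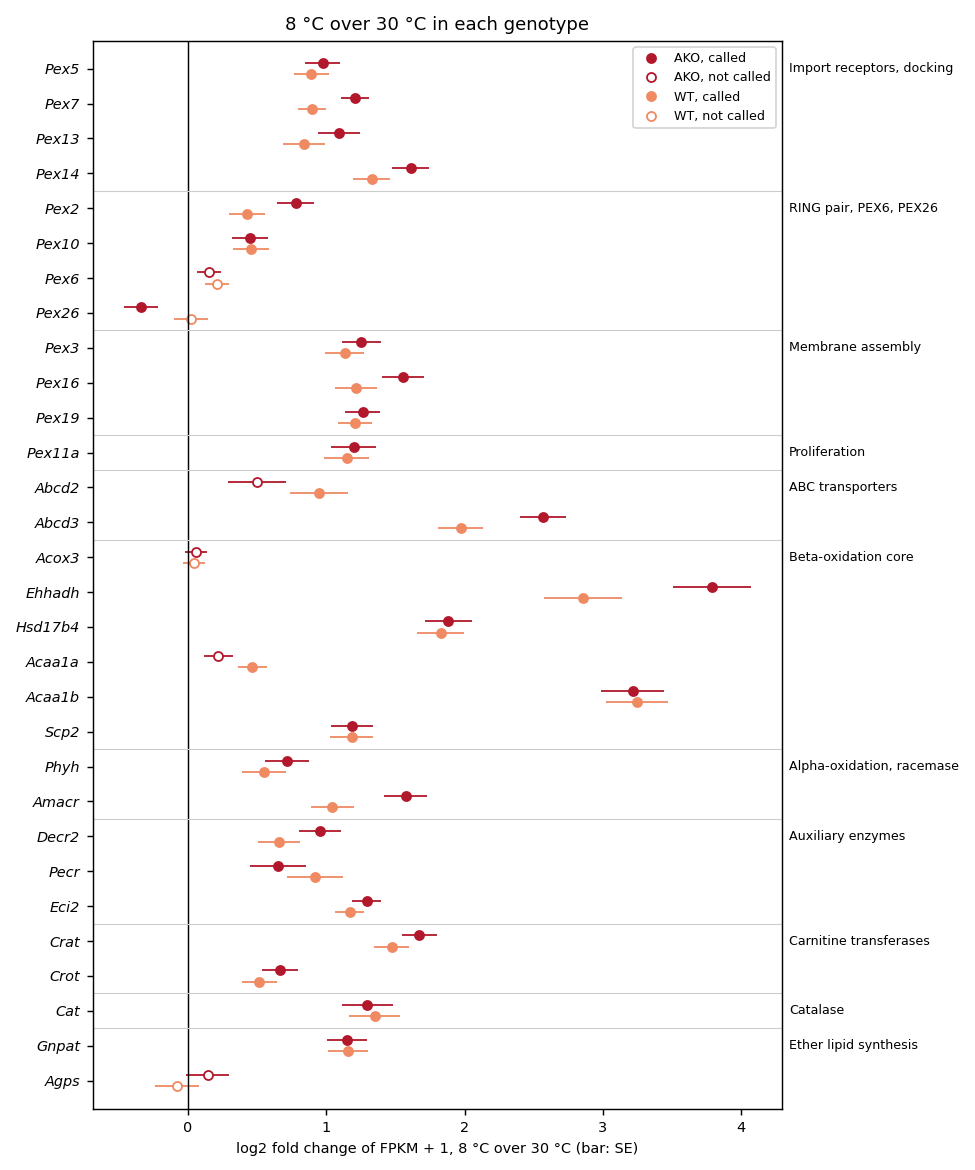
Log2 fold change of FPKM plus 1, 8 °C over 30 °C, on the horizontal axis for each gene down the page, grouped by role. Points are the AKO-labelled and WT-labelled estimates, bars are their SE, and filled points passed the adjusted p of 0.05. Ehhadh and Acaa1b lie near 3 and above, while Pex6, Pex10, Pex26, Acox3, Acaa1a and Agps lie within 0.5 of 0 in both genotypes.

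The enzymes that prepare unusual chains also rose. Phyh, the phytanoyl-CoA hydroxylase of alpha-oxidation, rose by 0.71 (adjusted p = 0.00294, SE 0.16) in AKO-labelled and 0.55 (adjusted p = 0.0134, SE 0.16) in WT-labelled fat, and the WT call was lost without cold WT-labelled replicate 1 (adjusted p = 0.0530). Amacr, the racemase that turns branched acyl-CoA into the form the oxidases accept, had 14.4, 20.6 and 21 FPKM in cold AKO-labelled fat, 13.1, 10.5 and 13.9 FPKM in cold WT-labelled fat, 5.87, 4.59 and 6.18 FPKM in warm AKO-labelled fat and 5.92, 5.44 and 5.21 FPKM in warm WT-labelled fat. Each cold value lay above each warm one, with log2 fold changes of 1.58 (adjusted p = 7.41e-06, SE 0.16) in AKO-labelled and 1.04 (adjusted p = 0.000235, SE 0.16) in WT-labelled fat. Decr2, Pecr and Eci2, the reductases and isomerase that deal with double bonds, rose by 0.96, 0.65 and 1.29 in AKO-labelled and 0.66, 0.92 and 1.17 in WT-labelled fat. D230017M19Rik on the opposite strand covers 11.5% of the exonic bases of Pecr, and for the other 10 genes with such a neighbour the largest single share was 7.63%. On the same strand, Gm16163 covers 7.81% of the exonic bases of Gnpat and Gm27941 0.715% of those of Crot. Pecr had 33.4, 18 and 18.7 FPKM in cold WT-labelled fat, where replicate 1 stood well above the others, and its call in AKO-labelled fat was lost without cold AKO-labelled replicate 3 (adjusted p = 0.0647) or warm AKO-labelled replicate 3 (0.0745). Equal-sum scaling also ended the call of Pecr in AKO-labelled fat (adjusted p = 0.102) and that of Phyh in WT-labelled fat (0.0553).

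Products of peroxisomal oxidation leave as carnitine esters, and both transferases rose. Crat, the carnitine acetyltransferase that also works in mitochondria, had 216, 271 and 246 FPKM in cold AKO-labelled fat, 198, 187 and 193 FPKM in cold WT-labelled fat, 90.3, 68.9 and 69.7 FPKM in warm AKO-labelled fat and 70.5, 75.4 and 61.2 FPKM in warm WT-labelled fat. The cold libraries lay well above the warm ones, with log2 fold changes of 1.67 (adjusted p = 8.55e-07, SE 0.12) in AKO-labelled and 1.47 (adjusted p = 5.89e-06, SE 0.12) in WT-labelled fat. Crot, the octanoyltransferase for medium chains, rose less, by 0.66 in AKO-labelled and 0.52 in WT-labelled fat. Catalase, which breaks down hydrogen peroxide, lies on chromosome 2, 103453849 to 103485160 (GRCm38) and had 399, 497 and 569.6 FPKM in cold AKO-labelled fat, 613, 367 and 446 FPKM in cold WT-labelled fat, 195, 172 and 225 FPKM in warm AKO-labelled fat and 194, 194 and 159.7 FPKM in warm WT-labelled fat. It rose by 1.30 (adjusted p = 0.000133, SE 0.19) in AKO-labelled and 1.35 (adjusted p = 0.000133, SE 0.19) in WT-labelled fat.

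Of the enzymes that begin ether lipid synthesis, Gnpat rose in the cold and Agps was not called. Gnpat, the acyltransferase that acylates dihydroxyacetone phosphate, had 122, 129 and 135 FPKM in cold AKO-labelled fat, 162, 108 and 121 FPKM in cold WT-labelled fat, 67.7, 54.5 and 51.5 FPKM in warm AKO-labelled fat and 61.2, 59.8 and 50.5 FPKM in warm WT-labelled fat. It rose by 1.15 (adjusted p = 5.86e-05, SE 0.15) in AKO-labelled and 1.16 (adjusted p = 8.17e-05, SE 0.15) in WT-labelled fat. Agps, which swaps that acyl group for the ether-linked alcohol in the next step, had 7.33, 5.95 and 7.16 FPKM in cold AKO-labelled fat, 7.08, 5.30 and 5.61 FPKM in cold WT-labelled fat, 7.61, 5.27 and 5.51 FPKM in warm AKO-labelled fat and 6.24, 5.39 and 7.59 FPKM in warm WT-labelled fat. Its cold and warm libraries overlapped in both genotypes and it was not called in either. Gnpat was therefore the higher of the pair by more than an order of magnitude in cold fat of each genotype.

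Other peroxisomal genes, from lists set by role, gave these counts, beside the same background shares. Like the 30 genes, these lists were chosen with earlier results of these data known, so the counts do not test an excess. Of 14 other biogenesis and division genes tested, 8 rose in AKO-labelled and 8 in WT-labelled fat and none fell. Tmem135, linked to peroxisomal fatty acid metabolism, was among them at 1.88 (adjusted p = 1.36e-05, SE 0.20) in AKO-labelled and 1.60 (adjusted p = 7.03e-05, SE 0.20) in WT-labelled fat. Of 30 other lipid genes 23 rose in AKO-labelled fat and 0 fell, and 24 rose and 2 fell in WT-labelled fat. Slc25a17, a peroxisomal carrier of CoA and related cofactors, rose by 2.59 in AKO-labelled and 2.14 in WT-labelled fat, and Ephx2, an epoxide hydrolase of cytosol and peroxisome, by 2.17 in AKO-labelled and 2.0 in WT-labelled fat. Of 15 other matrix enzymes 10 rose in AKO-labelled and 13 in WT-labelled fat, among them Idh1, an isocitrate dehydrogenase that supplies NADPH, by 1.20 in AKO-labelled and 1.38 in WT-labelled fat. For comparison, 18 of 18 genes of mitochondrial beta-oxidation rose in AKO-labelled and 17 of 18 in WT-labelled fat, with medians of 2.03 and 1.74, above the 1.17 and 0.99 of the 30 peroxisomal genes. Of 12 transcription regulators of these programmes 9 rose in AKO-labelled and 8 in WT-labelled fat. Esrra, the orphan receptor ERR alpha, had the smallest adjusted p of them, at 1.82 (adjusted p = 1.55e-07, SE 0.10) in AKO-labelled and 1.25 (adjusted p = 5.27e-06, SE 0.10) in WT-labelled fat. Ppara, which encodes PPAR alpha, had 31.1, 38.4 and 30.4 FPKM in cold AKO-labelled fat, 22.1, 21 and 24.7 FPKM in cold WT-labelled fat, 23.1, 8.21 and 7.98 FPKM in warm AKO-labelled fat and 9.82, 6.50 and 14.5 FPKM in warm WT-labelled fat and rose by 1.44 (adjusted p = 0.0039, SE 0.34) in AKO-labelled and 1.12 (adjusted p = 0.0159, SE 0.34) in WT-labelled fat, the WT-labelled call being lost without warm WT-labelled replicate 2 (adjusted p = 0.0651). Pparg, the adipocyte regulator PPAR gamma, averaged 142 ± 30.0 FPKM, 121 ± 17.6 FPKM, 80.7 ± 13.7 FPKM and 69.4 ± 10.6 FPKM in cold AKO-labelled, cold WT-labelled, warm AKO-labelled and warm WT-labelled fat. Ppargc1a, the coactivator PGC-1 alpha, averaged 11.3 ± 1.56 FPKM, 5.42 ± 0.534 FPKM, 1.55 ± 0.616 FPKM and 1.5 ± 0.597 FPKM in the same order, a rise of 2.29 (adjusted p = 3.19e-06, SE 0.20) in AKO-labelled and 1.39 (adjusted p = 0.000199, SE 0.20) in WT-labelled fat. Ucp1, the thermogenic uncoupling protein, averaged 3148 ± 602 FPKM, 2001 ± 13.8 FPKM, 16.2 ± 19 FPKM and 9.28 ± 3.89 FPKM in cold AKO-labelled, cold WT-labelled, warm AKO-labelled and warm WT-labelled fat (SD, n = 3 throughout). Between the genotypes in cold fat Ucp1 was not called, at 0.63 (adjusted p = 0.588, SE 0.57).

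The comparison of genotypes in cold fat asks what the labelled genotype changed in the cold. The log2 fold change of Ern1 itself was 0.43 (adjusted p = 0.0756, SE 0.12) here, higher in AKO-labelled fat, and directions below hold for the labels only. Of the 30 genes 1 passed, Pex7, which was higher in AKO-labelled fat, and none was lower. Over all genes tested 1.46% were called higher and 0.568% lower. The median log2 fold change of the 30 genes was 0.23, against 0.03 over all genes tested, and 24 of the 30 were positive. The shift was not particular to them: 18 of 18 mitochondrial beta-oxidation genes were positive, with a median of 0.45. Of the other lipid genes 25 of 30 were positive (median 0.26), of the other biogenesis genes 9 of 14 (0.18) and of the other matrix enzymes 9 of 15 (0.06). The AKO-labelled libraries lay entirely above the WT-labelled ones for 13 of the 30 genes, against 15.2% of all genes, and entirely below for 0, against 8.91%. With no adjustment and p under 0.05, 9 of the 30 were higher (11.9% of all genes) and 0 lower (7.49%). The 4 groups share 1 estimate of spread, and the cold AKO-labelled libraries also enter the cold comparison above. All genes called split into 193 higher and 75 lower, or 162 and 105 with upper-quartile and 85 and 94 with equal-sum scaling.

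Pex7 is the receptor for enzymes with an amino-terminal targeting signal, which in mammals are known to include the Acaa1 thiolases, Phyh and Agps. It lies on chromosome 10, 19853900 to 19907689 (GRCm38) and had 27.5, 28.7 and 30.0 FPKM in cold AKO-labelled fat, 23, 18.1 and 21.4 FPKM in cold WT-labelled fat, 13, 10.9 and 11.8 FPKM in warm AKO-labelled fat and 10.7, 10.1 and 11.2 FPKM in warm WT-labelled fat. Its 3 AKO-labelled values in the cold lay above the 3 WT-labelled values. The log2 fold change of AKO-labelled over WT-labelled cold fat was 0.45 (SE 0.10, adjusted p = 0.0482), close to the threshold. Leaving out any of the 6 cold libraries ended the call, with log2 fold changes of 0.36 to 0.52 and adjusted p of 0.0627 to 0.184, and it was also lost with smaller pseudocounts, with no filter, with no variance trend, in a fit of the 6 cold libraries alone and with equal-sum scaling. None of the genes for its known cargo in this set was called. Acaa1a, Acaa1b and Agps overlapped between the genotypes in the cold, and Phyh had 170.0, 190.5 and 186 FPKM in cold AKO-labelled fat, against 164, 133 and 146 FPKM in cold WT-labelled fat, without overlap but at an adjusted p of 0.318.

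Abcd3 and Ehhadh had the largest differences in cold fat and fell just short of the threshold. For Abcd3 the AKO-labelled mean was 143 ± 13.1 FPKM, against 87.9 ± 12.2 FPKM in WT-labelled fat (SD, n = 3), a log2 fold change of 0.70 (adjusted p = 0.0521, SE 0.17). It passed with a filter of 5 FPKM (adjusted p = 0.0443), median-ratio scaling (0.0429) and with a robust variance estimate (0.0499). Ehhadh averaged 341 ± 129 FPKM in AKO-labelled and 161 ± 35.6 FPKM in WT-labelled fat, a log2 fold change of 1.03 (adjusted p = 0.0777, SE 0.28). Its AKO-labelled values ran between 229 and 481 FPKM, and leaving out single cold libraries gave log2 fold changes of 0.75 to 1.29 and adjusted p of 0.0511 to 0.268. Both genes are in the authors' deposited table of this comparison, with AKO-over-WT log2 fold changes of 0.70 for Abcd3 and 1.08 for Ehhadh and a q-value of 0.000301 for each. The authors' deposited table lists genes down to an absolute log2 fold change of 0.585 and up to a p-value of 0.0499. None of the other 28 peroxisomal genes is in it. The largest estimate among those 28 was 0.53, for Amacr, below that limit, so absence says nothing about smaller differences.

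Smaller differences in the same direction stood behind the rest of the count. For Amacr the difference on the log2 scale was 0.53 (adjusted p = 0.0942, SE 0.16) and was called without cold AKO-labelled replicate 1 (0.70, adjusted p = 0.0424), the lowest AKO-labelled value at 14.4 FPKM. Decr2, Crat, Pex19, Pex2 and Eci2 had unadjusted p under 0.05 with log2 fold changes of 0.42, 0.34, 0.33, 0.29 and 0.28 and adjusted p of 0.162, 0.165, 0.172, 0.258 and 0.165. Pex14, Pex11a, Hsd17b4 and Phyh had AKO-labelled libraries above all WT-labelled ones without reaching that level. The lowest of the 30 log2 fold changes was -0.26, for Pex26, whose libraries overlapped. Of the other lists, 3 of 30 lipid genes were called higher in cold AKO-labelled fat, the acyl-CoA thioesterases Acot4 at 0.93 (adjusted p = 0.0278, SE 0.17), Acot5 at 0.88 (adjusted p = 0.0334, SE 0.18) and Acot12 at 0.73 (adjusted p = 0.0464, SE 0.16). Acot12 reached 1 FPKM only in the 3 cold AKO-labelled libraries, so it was tested only through the group in which it was then called higher. Ppargc1a was the 1 of 12 regulators called, at 0.94 (adjusted p = 0.038, SE 0.20), and Cpt1a, which commits acyl-CoA to mitochondria, the 1 of 18 mitochondrial genes, at 0.48 (adjusted p = 0.0354, SE 0.10). Leaving out any single cold library ended the calls of Ppargc1a and Cpt1a, and without cold WT-labelled replicate 1, 2 or 3 none of the 3 lists had a call, while without cold AKO-labelled replicate 2 or 3 the lipid genes had 1. Brown and beige markers had a median of 0.67 in this comparison with 1 of 8 called higher. Adipocyte markers had one of -0.06, with 1 of 10, Lep, called lower at -2.35 (adjusted p = 0.00577, SE 0.31). Lymphocyte markers had one of -0.55 and muscle markers one of -0.97, with 0 of 10 called in each of the lymphocyte and muscle lists. The part of these markers in the differences above was not tested.

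**Figure D3:**
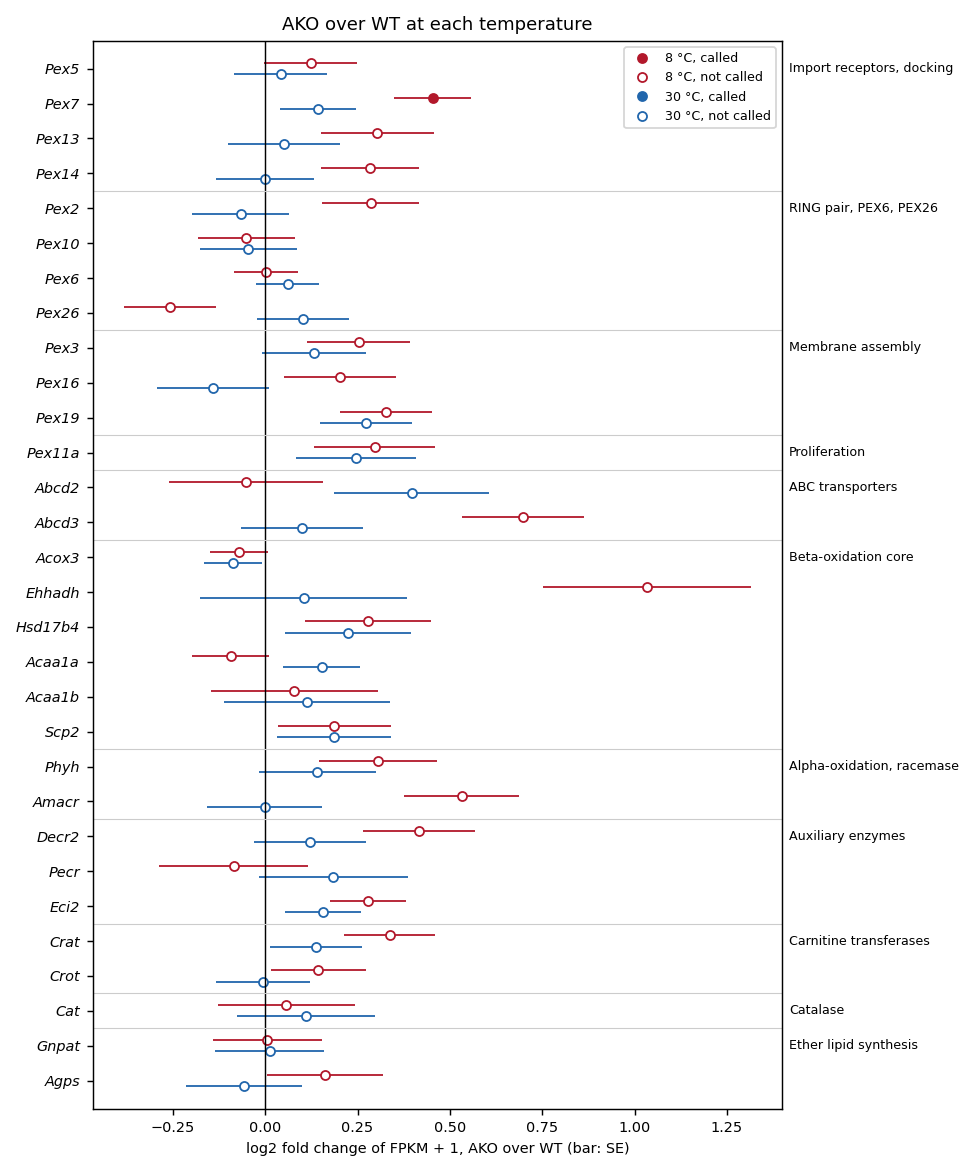
Log2 fold change of FPKM plus 1, AKO-labelled over WT-labelled fat, on the horizontal axis for each gene down the page, grouped by role. Points are estimates at 8 °C and at 30 °C, bars are SE, and the filled point, Pex7 at 8 °C, is the 1 call; Ehhadh, Abcd3 and Amacr lie furthest to the right at 8 °C, at 1.03, 0.70 and 0.53.

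In warm fat, which addresses the genotype without cold, none of the 30 genes passed in either direction, where 0.757% of all genes were called higher and 0.0378% lower. With no adjustment and p under 0.05, 1 was higher (6.84% of all genes) and 0 lower (7.6%). Pex19 was that gene, with 63.3, 53.9 and 54.5 FPKM in warm AKO-labelled fat, against 50.5, 50.1 and 41.2 FPKM in warm WT-labelled fat and a log2 fold change of 0.27 (adjusted p = 0.341, SE 0.12). The AKO-labelled libraries lay entirely above the WT-labelled ones for 3 genes, Pex19, Acaa1a and Abcd2 (8.54% of all genes), and entirely below for 1, Acox3 (10.6% of all genes). Abcd2 had the largest estimate, 0.40 (adjusted p = 0.411, SE 0.21). The median of the 30 genes was 0.11, against -0.04 over all genes tested. Ern1 had a value of 0.36 (adjusted p = 0.193, SE 0.12) here. None of the 30 is in the authors' deposited table for warm fat. That table lists genes down to an absolute log2 fold change of 0.585, above the largest estimate here, so absence from it says nothing about smaller differences. Macrophage and fibroblast markers lay higher in warm AKO-labelled fat, with 2 and 3 of 10 called and medians of 1.13 and 1.27. The macrophage markers summed to 441 to 755 FPKM in AKO-labelled and 225 to 239 in WT-labelled warm fat, and their part in these values was not tested.

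The interaction asks whether the cold response differed between the genotypes. None of the 30 genes passed, where 0.0605% of all genes were called higher and 0.053% lower. Before adjustment, at p under 0.05, 0 were lower (5.88% of all genes) and 3 were higher, a share of 10% that is near the 8.99% of all genes. These were Abcd3 at 0.60 (adjusted p = 0.276, SE 0.23), Ehhadh at 0.93 (adjusted p = 0.307, SE 0.40) and Amacr at 0.53 (adjusted p = 0.299, SE 0.22). The estimated cold response of each was larger in AKO-labelled fat, as given above, and the difference stayed short of the threshold under each alternative that was run. For Pex7 the interaction was 0.31 (adjusted p = 0.351, SE 0.15). Over all genes the split of interaction calls was 8 higher and 7 lower, or 3 and 7 with upper-quartile and 3 and 5 with equal-sum scaling. A larger cold response of peroxisomal genes in AKO-labelled fat was therefore not shown for any single gene.

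Within a group, the 30 genes tended to deviate in the same direction in a library. Cold WT-labelled replicate 1 was the highest of its 3 libraries for 27 of the 30 genes, and replicate 2 the lowest for 24. Warm AKO-labelled replicate 1 was the highest of its group for 22, warm WT-labelled replicate 3 the lowest for 23, and cold AKO-labelled replicate 1 the lowest for 21. The median deviation of the 30 genes from the group mean was 0.17 on the log2 scale in cold WT-labelled replicate 1, against 0.04 over all genes tested, and 0.16 in warm AKO-labelled replicate 1, against 0.03. In warm WT-labelled replicate 3 it was -0.13, against 0.02. Some of these libraries also stood out in cell type markers. Cold WT-labelled replicate 1 had an adipocyte sum of 75457 FPKM, against 51411 and 52249 in its group, and warm AKO-labelled replicate 1 a brown and beige sum of 1568, against 849 and 703. The other sum went the opposite way in each. Cold WT-labelled replicate 1 had the lowest brown and beige sum of its group, 7476 against 8603 and 9134. Warm AKO-labelled replicate 1 had the lowest adipocyte sum of its group, 33321 against 40015 and 40468. Warm WT-labelled replicate 3 had the lowest adipocyte sum of its group, 31431 against 35307 and 34908. Its muscle sum was the highest, 7241 against 2806 and 3816, as was its brown and beige sum, 1011 against 884 and 722. Cold AKO-labelled replicate 1 had the lowest brown and beige sum of its group, 10475 against 12823 and 12772. Its adipocyte sum was the highest, 58719.6 against 54604 and 58381. The part of these marker differences in the genes' deviations was not tested. Ehhadh in cold AKO-labelled replicate 3 deviated furthest upward (0.56) and Acaa1b in warm WT-labelled replicate 3 furthest downward (-0.63).

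**Figure D4:**
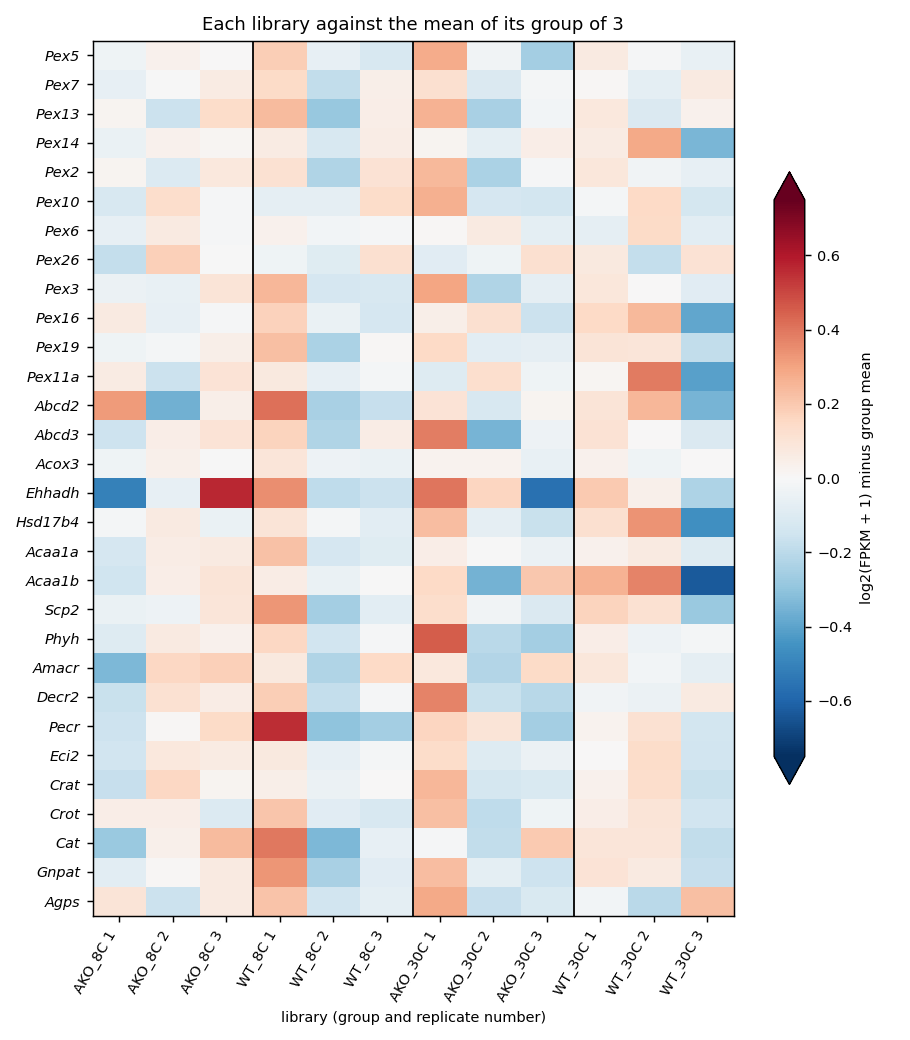
Deviation of each library on the horizontal axis from the mean of its group of 3, as log2(FPKM + 1) in colour, for each gene down the page. Red columns such as WT_8C 1 and AKO_30C 1 and blue columns such as WT_30C 3 show libraries in which most of the 30 genes deviated the same way; the widest single values are 0.56 for Ehhadh and -0.63 for Acaa1b.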

How the data were processed

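RNA-seq libraries of inguinal fat from 12 mice in 4 groups of 3 were analysed. The authors' deposited gene table holds one FPKM value per gene and library, made with TopHat2 2.0.14 and Cufflinks 2.2.1 on mm10, per the submitters' processing notes. It is named as counts, but 99.99% of its nonzero values are not whole, so the test for FPKM was used. FastQC 0.11.3 and bcl2fastq are named too, and the annotation, options and strand setting are not given in the sources used here. The authors' deposited comparison tables hold log2 fold changes of AKO over WT, p-values and q-values and a test statistic, the last being the authors' score and not used here.

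From these, limma 3.58.1 (R 4.3.3) was fitted to log2(FPKM + 1) with 1 mean per group over all 12 libraries and a variance trend. Fold changes on this scale understate those of low genes. Genes needed 1 FPKM in at least 3 libraries, and 2 genes that jumped between 0 and over 1000 FPKM were dropped, which left 13215 of 24344. All 30 peroxisomal genes passed. Tests are two-sided with Benjamini-Hochberg adjustment over all genes tested, at 0.05, in 5 comparisons, and were tested on simulated data. Without counts, no counting error can be given.

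All 30 genes are described by role, with full statistics for those called. Of other lists up to 4 called genes per comparison, those with the smallest adjusted p, were open to naming, besides Ern1, Ppara, Pparg, Ppargc1a and Ucp1. The members and lists were chosen with earlier results of these data known. Nothing in the labels says more of the mice's litters or batches. Coordinates are from GENCODE M21 (GRCm38, the assembly of mm10). Promoters are from a RefSeq table and were searched with Python 3.11.15, transcripts were aligned with Biopython 1.88, and figures drawn with matplotlib 3.10.9.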

Additional observations from a re-analysis of the deposited data

How the results depend on the processing

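Among the 30 genes, the count called higher in cold AKO-labelled over cold WT-labelled fat, 1 as reported, was 0 with a pseudocount of 0.5 or 0.1, with no filter on low values, with no variance trend, with a fit of those 6 libraries alone and with equal-sum scaling, an alternative chosen after the data were seen. It was 2 with a filter of 5 FPKM, with median-ratio scaling and with a robust variance estimate, and ran between 0 and 1 when single libraries were left out. In warm fat and for the interaction it was 0 under each alternative, and the fit of only the libraries compared has no counterpart for the interaction, which uses all of them. The cold counts in either direction ran between 22 and 26 in AKO-labelled and between 23 and 27 in WT-labelled fat. With equal-sum scaling the cold change of Pex6 in AKO-labelled fat turned to -0.11 and that of Acaa1a to -0.047, neither being called, and that of Acox3 to -0.20, which was called lower (adjusted p = 0.0392). Acox3 also turned, to -0.053, with upper-quartile scaling, uncalled. For 125 gene and comparison pairs, 2088 recomputed values kept their direction and side of the threshold, 80 lost a call, 14 gained a call and 4 reversed. These pairs were mainly those called, with an unadjusted p under 0.05, without overlap between groups, or passing under an alternative. Many are cold against warm, whereas most of the lost calls were between the genotypes in cold fat, so the total does not describe the genotype calls. Over all genes 193 were called higher in cold AKO-labelled fat and 85 with equal-sum scaling, and in warm fat 53 with median-ratio and 125 with equal-sum scaling, where 0.757% were called as reported. The causes of these shifts were not tested.

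Replicate numbers were not taken to pair the libraries. Same-numbered libraries of different groups had correlations of -0.11 to 0.20 in their deviations, with 8 of 18 over 0.1, and other-numbered ones -0.26 to 0.17, with 4 of 36 over 0.1. With a replicate block the count in cold fat between genotypes was 2, with Abcd3 at an adjusted p of 0.0471, Pex6 passed in WT-labelled (0.0378) and Abcd2 in AKO-labelled cold against warm fat (0.0387), the cold counts were 26 in AKO-labelled and 27 in WT-labelled fat, and the others stayed at 0. The deposited FPKM carry no read counts, so how far depth limits the low genes, such as Agps and Pex26, is unknown.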
